A study of Homo sapiens with 8 samples.

Results

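The 63 chaperone genes described here code for the heat shock proteins of the HSP70, HSP90, HSP110, small HSP and mitochondrial HSP60 and HSP10 families, for the J-domain co-chaperones named DNAJ, for the subunits of the cytosolic chaperonin TRiC, and for the lectin chaperones calreticulin and calnexin. They were chosen by gene symbol alone, with a mean of at least 20 reads per library over the chase, and make up 63 of the 10643 genes that reached that level. GENCODE 29 holds 96 symbols of these families, of which 75 had a read. The 12 that had reads but stayed below the minimum were CCT6B, DNAJB13, DNAJC12, DNAJC17, DNAJC22, DNAJC28, DNAJC5B, DNAJC6, HSPA12A, HSPA2, HSPA6 and HSPB6. The closest of these were DNAJC5B with a mean of 19.3 reads and DNAJC22 with 17.9 reads, and the members closest above the minimum were DNAJC24 with 21.7 reads and DNAJB4 with 32.6 reads.

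The cells were THP-1, an established human line grown from acute monocytic leukaemia, in a SLAM-seq pulse and chase. In SLAM-seq, 4-thiouridine (4sU) is taken up by living cells and built into new RNA, iodoacetamide then alkylates it, and the modified bases read as T-to-C changes. Cells in 7 libraries received 30 µM 4sU for 12 h with a change of medium every 3 h, were washed in ice-cold PBS, and were harvested after 0 h, 20 min, 40 min, 1 h, 2 h, 8 h or 12 h in medium with 3 mM uridine. An eighth library came from cells that never received 4sU. Every condition was 1 library of the same line, so no difference between 2 libraries could be tested, and the labels do not say whether the times came from separate cultures.

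Chaperones bind unfolded or partly folded proteins and keep them from aggregating. HSP70 proteins cycle between ATP-bound and ADP-bound states, DNAJ proteins bring clients to HSP70 and trigger its ATP hydrolysis, and HSP90 acts on a later set of clients such as kinases and steroid receptors. TRiC is a ring-shaped chamber that folds actin and tubulin, HSP60 with its lid HSP10 does the like in mitochondria, and the endoplasmic reticulum has its own set for secreted proteins. Heat shock factor 1 induces many of the cytosolic genes under proteotoxic stress, and the unfolded protein response induces many of those of the endoplasmic reticulum.

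The library without 4sU held 2916031 gene reads and the 7 chase libraries held from 8301030 (12 h) to 11224001 (8 h), so values without 4sU rest on fewer reads. Chaperone genes took from 1.88% (2 h) to 2.23% (12 h) of gene reads in the chase libraries and 2.59% without 4sU. Labelled reads made up 0 of the 75448 chaperone reads without 4sU, which allows a share of up to 0.00398%. Markers of the monocytic line were present, with 133 to 4216 reads per library for LYZ, 89 to 978 for CD33 and 8 to 582 for CD14, whereas CD3E and HBB had 0 reads in every library. The sequenced RNA is that of a culture as a whole, in which fewer cells of a kind and less RNA per cell cannot be told apart.

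In the pooled reads of the chaperone genes, label held level to 2 h and was largely lost by 12 h. In the order of the chase times (0 h, 20 min, 40 min, 1 h, 2 h, 8 h and 12 h), 35.4, 35.1, 36.0, 35.8, 34.6, 15.1 and 6.84% of all chaperone reads were labelled, against 30.6, 30.1, 30.7, 30.2, 27.1, 10.8 and 5.53% of all gene reads. Values for the 7 times are given in this order throughout. The decline of the labelled share with hours of chase passed the threshold in 57 of 58 chaperone genes with enough labelled reads for the test (edgeR quasi-likelihood fit, Benjamini-Hochberg adjusted p under 0.05 over all genes), beside 95.3% of all 9402 genes tested, so the share of genes with a decline is close to the background. The exception was DNAJC4, with 6.90% of its reads labelled at the end of the chase and only 2.86% at its start (adjusted p = 0.417). DNAJB4, DNAJC18, DNAJC24, HSPA1L and HSPB7 had too few reads to be tested.

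**Figure D1:**
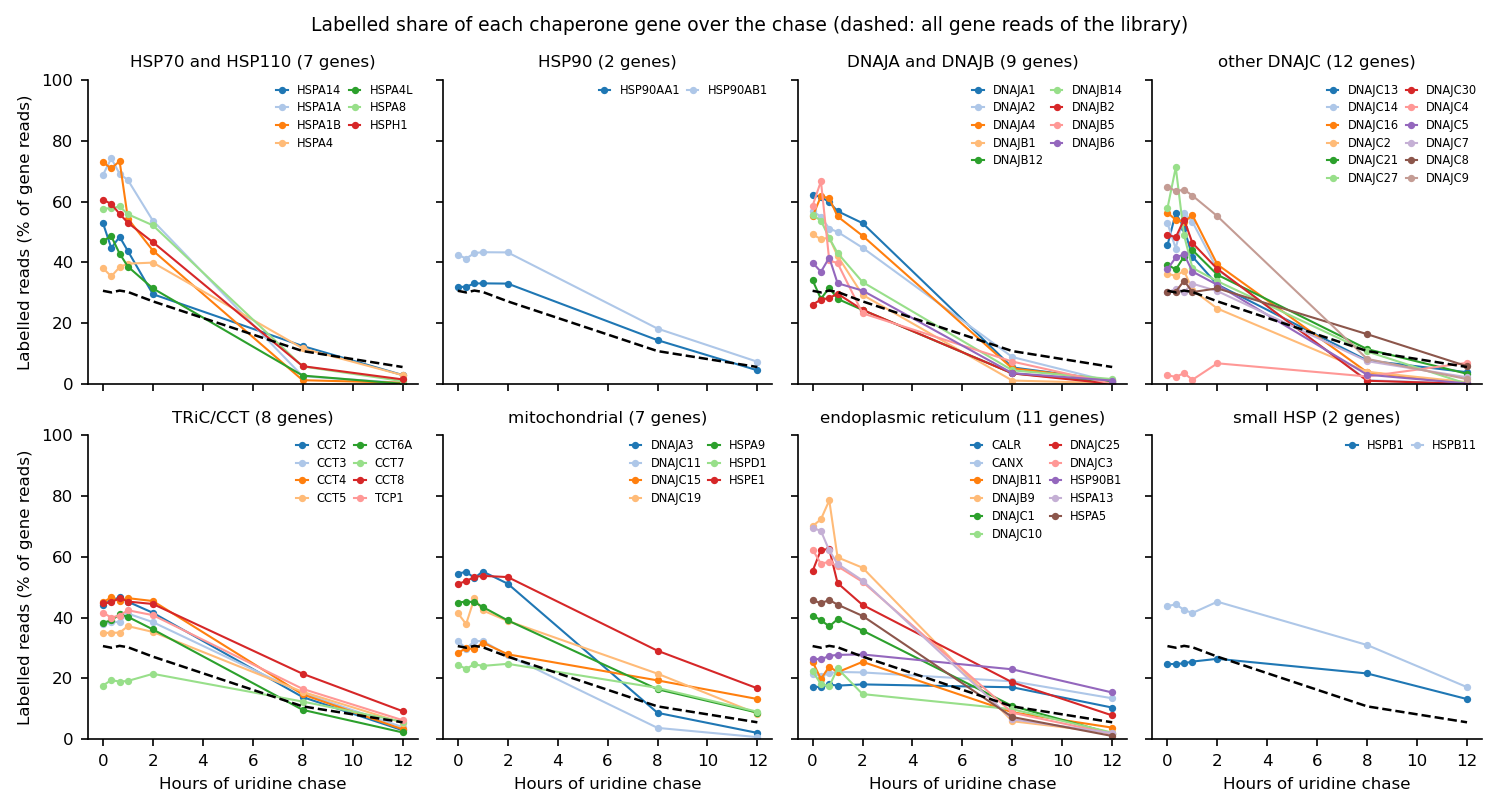
Labelled reads as a percentage of a gene's reads (vertical axis) against hours of uridine chase (horizontal axis), 1 library per time, for the 58 chaperone genes with a fitted decline, split by role; the dashed line is the labelled share of all gene reads. The DNAJA and DNAJB genes of cytosol and nucleus lie between 1.06% (DNAJB1) and 8.81% (DNAJA2) at 8 h, CALR, CANX, HSP90B1 and HSPB1 keep from 85.9% (HSP90B1) to 97.7% (CALR) of their starting share at 8 h, and DNAJC4 stays under 10% throughout.

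The half-life of the labelled share was resolved for 56 chaperone genes, and its median was 3.27 h, with quartiles of 2.42 and 5.16 h, against 2.72 h (2.16 and 3.99 h) for the 8831 genes resolved in all. Of the 56, 4 (7.14%) lay under 2 h, 30 (53.6%) between 2 and 4 h, 15 (26.8%) between 4 and 8 h and 7 (12.5%) above 8 h. For all genes these shares were 17.7%, 57.4%, 18.0% and 6.83%. The share is taken over a gene's own reads, so its half-life also depends on the course of the total, and both shorter and longer values than from labelled reads alone are given below. With labelled CPM (labelled reads scaled to a common library size) in place of the share the chaperone median was 3.64 h and that of all genes 2.80 h. The fit is a single exponential from 0 h, and shares that were level at first depart from it. Dispersion, the scatter about the fit relative to counting error, reached 286 (HSP90AB1) and 213 (HSPA8). Each SE was widened where it exceeded counting error. With the 1 to 12 h libraries only, the medians were 3.03 and 2.35 h.

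**Figure D2:**
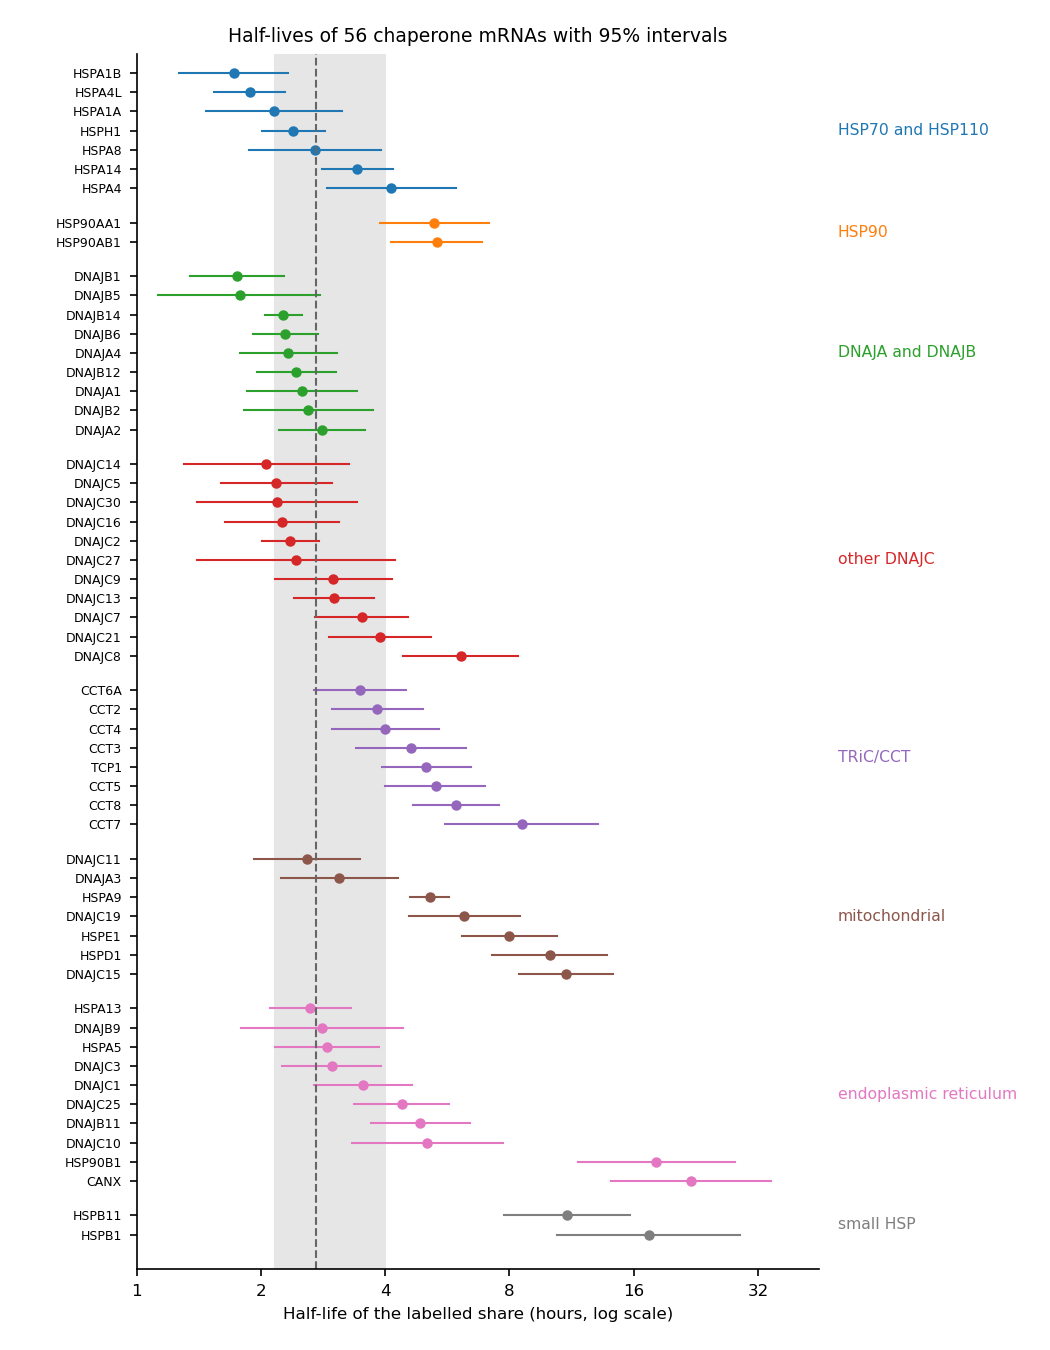
Half-life of the labelled share in hours (horizontal axis, log scale) for 56 chaperone genes by role (vertical axis); points are estimates and bars are 95% intervals from the fit over 7 libraries, and the dashed line and grey band mark the median (2.72 h) and quartiles of all genes. The cytosolic HSP70 and DNAJ genes sit around the band, while HSPD1, DNAJC15, HSPB1, HSPB11, HSP90B1 and CANX lie to its right.

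Cytosolic HSP70 and HSP110 mRNAs had a median half-life of 2.40 h over 7 resolved genes. That is within the quartiles of all genes, 2.16 and 3.99 h, whose median was 2.72 h. HSPA1A and HSPA1B are the classic stress-inducible HSP70 genes, nearly identical copies side by side on chromosome 6 whose 3′ ends begin at 31785460 and 31797654 on the plus strand of hg19. The labelled share of HSPA1B over the 7 times was 72.9, 70.9, 73.3, 54.4, 43.9, 1.18 and 0.351%, which gave the shortest half-life of all chaperone genes, 1.72 ± 0.27 h (SE). That of HSPA1A was 68.8, 74.2, 69.1, 67.0, 53.7, 2.48 and 0.273%, with a half-life of 2.15 ± 0.42 h. Both copies had lost nearly all label by 8 h, and the sources used here do not say to which copy shared reads were assigned, so their individual values are uncertain.

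HSPA8, the constitutive HSP70 of the cytosol, had a half-life of 2.70 ± 0.51 h, and its labelled share was 57.7% at the start, 52.2% by 2 h, 5.71% by 8 h and 0.879% by 12 h. HSPH1, the HSP110 that exchanges nucleotide on HSP70, had 2.40 ± 0.21 h. Its relative HSPA4L had 1.88 ± 0.19 h and HSPA4 had 4.14 ± 0.76 h, the longest of the group. The 95% interval of HSPA4, 2.89 to 5.93 h, lay above those of HSPA4L (1.54 to 2.29 h) and HSPH1 (2.01 to 2.86 h). This difference is one of labelled shares. The totals of HSPA4L and HSPH1 rose over the chase (log2 change 1.08 and 1.21), and that of HSPA4 did not pass the threshold (-0.11). A rising total lowers the share, and from labelled CPM HSPH1 had a longer half-life, as given below. Whether the loss of labelled reads differed was not tested.

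The DNAJA and DNAJB co-chaperones outside the lumen of the endoplasmic reticulum had the lowest median half-life of the 8 roles, 2.33 h over 9 genes. Half-lives ran from 1.75 ± 0.24 h for DNAJB1, the main stress-inducible partner of HSP70, to 2.82 ± 0.34 h for DNAJA2. The labelled share of DNAJB1 was 49.2, 47.6, 48.1, 42.1, 29.3, 1.06 and 0.228%, already lower at 2 h than at the first 3 times. DNAJA1, an abundant constitutive partner of HSPA8, had 2.52 ± 0.39 h. DNAJB4 carried the most label of any chaperone gene at 0 h, 74.1% of 27 reads, too few for a half-life.

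Cytosolic HSP90 mRNAs had longer half-lives than the median of cytosolic HSP70 and HSP110. The inducible HSP90AA1 had a half-life of 5.26 ± 0.82 h and the constitutive HSP90AB1 had 5.33 ± 0.69 h, and their 95% intervals, 3.88 to 7.14 h and 4.13 to 6.87 h, overlap almost fully. Their labelled shares stayed level until 2 h, at 33.0% for HSP90AA1 and 43.3% for HSP90AB1 (31.9% and 42.5% at 0 h), and were 14.4% and 18.2% at 8 h. A single exponential from 0 h did not follow this course closely, with a dispersion of 129 for HSP90AA1 and 286 for HSP90AB1. Both half-lives are therefore approximate. HSP90AB1 was the most abundant chaperone mRNA by reads, with 3300 CPM (reads scaled to a common library size) at 0 h.

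All 8 measured subunits of TRiC had a called decline of the labelled share, beside 95.3% of all genes tested. Their median half-life was 4.84 h, between the medians of the cytosolic HSP70 and the mitochondrial genes. The ring holds 1 copy of each subunit on either side, so the protein is made of equal parts. Half-lives were 3.48 ± 0.46 h for CCT6A, 3.83 ± 0.50 h for CCT2, 4.01 ± 0.61 h for CCT4, 4.63 ± 0.72 h for CCT3, 5.04 ± 0.64 h for TCP1, 5.30 ± 0.76 h for CCT5, 5.95 ± 0.73 h for CCT8 and 8.57 ± 1.87 h for CCT7. Neighbours in that order do not differ beyond their intervals, and CCT7 (5.58 to 13.1 h) lies above CCT6A (2.69 to 4.50 h). Without the 12 h library CCT7 had 13.3 h. The levels of the subunits at 0 h ran from 220.5 CPM for CCT2 to 738 CPM for CCT3, in reads of 3′ ends, which do not scale with transcript length.

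Among the chaperones of the endoplasmic reticulum 10 had a resolved half-life, with a median of 3.96 h beside 2.72 h for all genes. DNAJC3 had 2.97 h, DNAJC1 3.53 h, DNAJC25 4.39 h, DNAJB11 4.87 h and DNAJC10 5.06 h. HSPA5 (BiP), the HSP70 of this compartment, had a half-life of 2.90 ± 0.43 h and HSPA13, a divergent HSP70 with the shortest value of the group, had 2.63 ± 0.30 h. DNAJB9, a co-chaperone of BiP in degradation and in feedback on the sensor IRE1, had 2.82 ± 0.65 h. By contrast HSP90B1 (GRP94), the HSP90 of this compartment, had 18.2 ± 4.05 h and CANX, the membrane-bound lectin chaperone calnexin, had 22.04 ± 5.03 h. For CALR, the soluble lectin chaperone calreticulin, the fit gave 25.9 ± 10.6 h, above the limit of 24 h for a resolved value.

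The labelled share of HSPA5 over the 7 times was 45.7, 44.7, 45.8, 44.3, 40.5, 7.26 and 1.02%. That of CALR was 17.2, 17.2, 18.0, 17.6, 18.0, 17.1 and 10.4%. That of CANX was 21.5, 20.8, 21.6, 22.1, 21.9, 19.0 and 13.4%. HSPA5 was near 0 at the end while both lectin chaperones were near their starting share as late as 8 h, as was HSP90B1 with 26.4, 26.2, 27.4, 27.7, 27.9, 23.0 and 15.3%. HSPA5 thus kept 2.24% of its starting share (the pooled share of the first 3 libraries) at 12 h, while HSP90B1 kept 57.4%, CALR 59.4% and CANX 63%, against a median of 3.14% for all genes. The values of the 3 slow genes rest on the 12 h library: without it their decline no longer passed the threshold and the half-lives of CANX and HSP90B1 came to 44.4 and 35.2 h. Their total levels also fell, as given below, and from labelled CPM CANX had 10.3 h and HSP90B1 8.60 h.

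The 4 genes are shown with their promoters because they share a sequence while their labelled shares took different courses. In RefSeq promoter windows of GRCh38.p14, 250 bases before to 50 after each start, an exact ER stress response element, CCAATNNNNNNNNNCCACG on either strand, lay in CALR, CANX, HSP90B1 and HSPA5 and in no other of the 58 chaperone genes with a window. It was found in 6 of 80 chaperone windows (7.5%), since 3 overlapping windows of CANX hold the same match, against 27 of all 35116 windows (0.0769%). The windows below are read on the strand that carries the element, whose 19 bases are in capitals. They lie at chr9:125241377-125241423 (HSPA5, minus strand), chr19:12938370-12938416 (CALR, minus strand), chr5:179698764-179698810 (CANX, plus strand), chr12:103930202-103930248 (HSP90B1, plus strand) and chr12:103930307-103930353 (HSP90B1, minus strand).
HSPA5: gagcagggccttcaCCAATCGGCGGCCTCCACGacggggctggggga
CALR: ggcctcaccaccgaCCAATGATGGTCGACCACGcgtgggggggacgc
CANX: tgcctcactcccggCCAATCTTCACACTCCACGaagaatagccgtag
HSP90B1, upstream: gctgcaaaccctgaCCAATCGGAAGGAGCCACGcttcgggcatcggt
HSP90B1, near the start: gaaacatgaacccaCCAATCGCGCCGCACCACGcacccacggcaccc
The letters between the fixed ends differ in all 5. Every match also counts as a CCAAT box, a motif found in 42.5% of chaperone windows and 34.6% of all windows. The whole HSPA5 window, chr9:125241294-125241593 on the minus strand, holds 5 CCAAT boxes on either strand, and the element in capitals lies 66 to 48 bases before the start.
HSPA5 promoter: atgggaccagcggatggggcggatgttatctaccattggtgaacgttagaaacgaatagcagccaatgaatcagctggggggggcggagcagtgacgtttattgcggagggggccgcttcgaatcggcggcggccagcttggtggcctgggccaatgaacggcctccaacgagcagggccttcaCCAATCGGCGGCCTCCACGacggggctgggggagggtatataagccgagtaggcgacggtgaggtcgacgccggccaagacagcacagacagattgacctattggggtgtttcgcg
A match describes these letters and does not show binding.

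Mitochondrial chaperone mRNAs had a median half-life of 6.22 h over 7 genes, the highest of the roles with more than 2 resolved genes. HSPD1 and HSPE1, the HSP60 chamber and its HSP10 lid, had 10.0 ± 1.64 h and 7.99 ± 1.08 h, with 95% intervals of 7.28 to 13.8 h and 6.14 to 10.4 h that overlap. HSPA9, the mitochondrial HSP70 (mortalin), had 5.13 ± 0.29 h. The span ran from 2.59 ± 0.39 h for DNAJC11, a protein linked to the MICOS complex of the inner membrane, to 10.96 ± 1.46 h for DNAJC15, a J-protein of the import motor. The labelled share of HSPD1 over the 7 times was 24.4, 23.2, 24.6, 24.1, 24.8, 16.8 and 9.004%, and that of HSPE1 was 51.1, 52.0, 53.4, 53.7, 53.3, 29.1 and 16.7%. HSPE1 carried more label throughout, yet the 2 genes kept 37.4% (HSPD1) and 32% (HSPE1) of their own starting share by the end.

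HSPD1 and HSPE1 have annotated starts 105 bases apart on chromosome 2, in opposite directions, and the stretch between these starts is shown. RefSeq has a further start of HSPD1, and which start these cells use was not measured. It covers chr2:197500274-197500379 on the plus strand of GRCh38.p14, from the start of HSPD1 to that of HSPE1, and 74.5% of its 106 bases are G or C.
HSPD1 to HSPE1: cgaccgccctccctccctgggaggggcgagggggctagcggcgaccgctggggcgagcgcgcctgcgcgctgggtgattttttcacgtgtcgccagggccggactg
At 12 h HSPD1 had 662 CPM and HSPE1 361 CPM, and at 0 h they had 621 and 418 CPM; without the 12 h library HSPE1 was called as falling.

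Of the small HSP genes, 2 had a resolved half-life. HSPB1 (HSP27), which binds unfolding proteins without ATP, had a half-life of 17.4 ± 4.53 h and kept 53.2% of its starting share at 12 h; without the 12 h library the value was 38.0 h, and from labelled CPM it was 9.61 h. HSPB11, which carries a small HSP name but is a component of intraflagellar transport, had 11.03 ± 1.97 h. HSPB7 averaged 38.7 reads, below the minimum of 50 for a fit. Of the other DNAJC genes, a mixed group with many functions outside folding, 11 were resolved with a median of 2.43 h, from 2.06 ± 0.49 h for DNAJC14 to 6.10 ± 1.00 h for DNAJC8, a nuclear protein linked to splicing.

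Total levels moved in both directions over the chase, and about as often as in other genes. Against hours of chase, 15 of 63 chaperone genes rose and 13 fell (edgeR quasi-likelihood fit, adjusted p under 0.05 over 10643 genes), beside 25.7% of all genes that rose and 25.6% that fell. The median change over 12 h was 0.10 on the log2 scale for chaperone genes and -0.01 for all genes. Scaling by plain library sizes moved every gene up by 0.16 at 12 h over 0 h and gave 29 rises and 10 falls among the chaperones, with DNAJC3, DNAJC4 and HSPA13 no longer falling. Without the 12 h library the rises of CCT3, DNAJC13 and TCP1 and the falls of DNAJC3, DNAJC4 and HSPA13 were no longer called, while CCT7, DNAJC30 and HSPE1 were called as falling. In bulk counts of this kind a level is relative to the other mRNAs of the library.

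**Figure D3:**
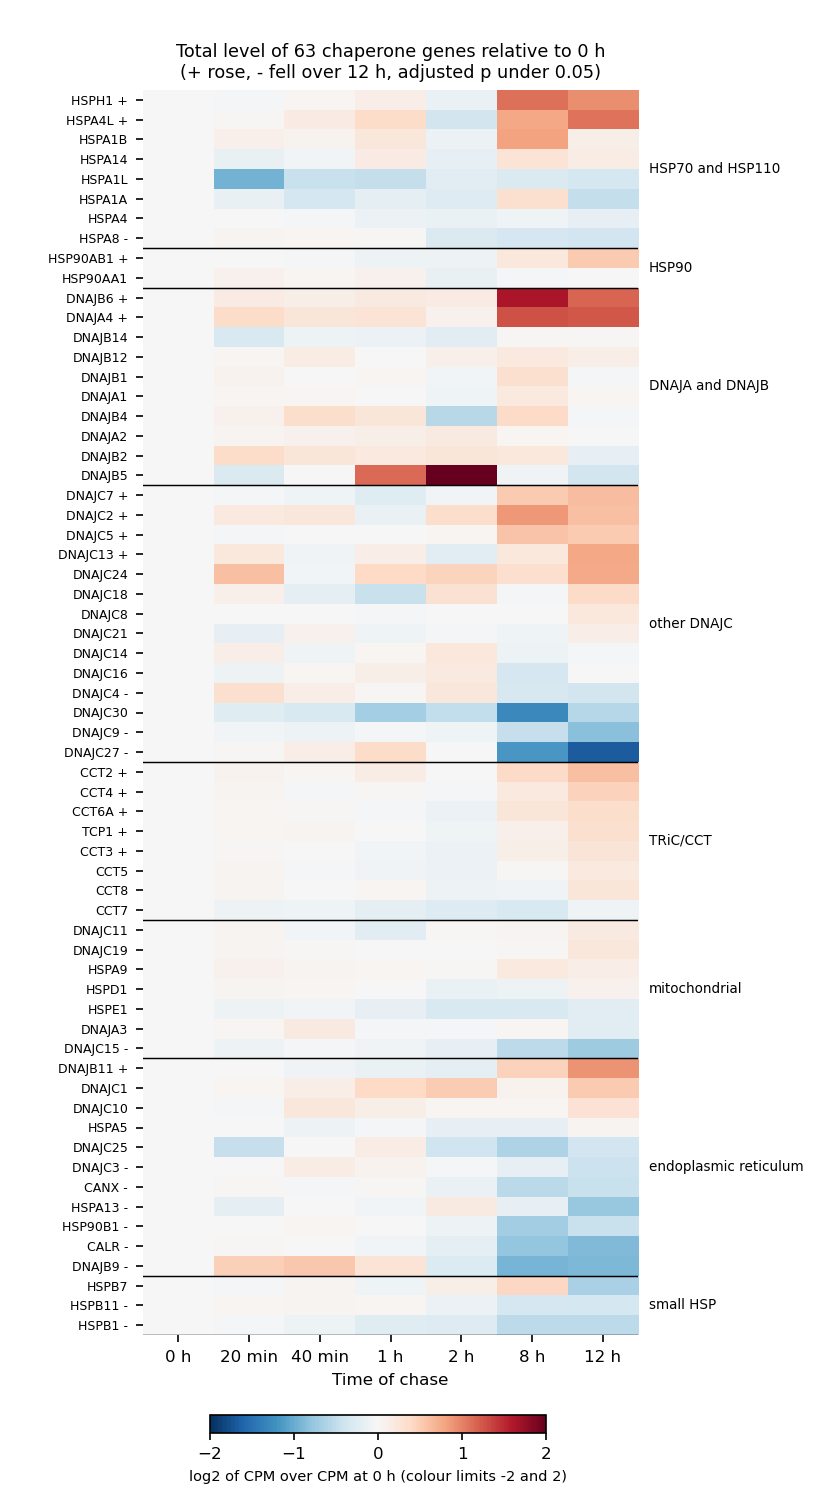
Total level of the 63 chaperone genes as log2 of CPM over CPM at 0 h (colour, blue lower, red higher, limits at -2 and 2) in the 7 chase libraries (horizontal axis), ordered by role and by change over 12 h (vertical axis); + and - mark genes that rose or fell. HSPH1, HSPA4L, DNAJB6 and DNAJA4 turn red at 8 h, DNAJB5 stands out at 2 h, and CALR, DNAJB9 and DNAJC27 turn blue at 8 and 12 h.

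The 5 largest rises were those of DNAJB6 (log2 change over 12 h of 1.54, adjusted p = 0.000225), DNAJA4 (1.28, adjusted p = 7.74e-05), HSPH1 (1.21, adjusted p = 0.000111), HSPA4L (1.08, adjusted p = 0.00126) and DNAJB11 (0.97, adjusted p = 2.79e-05). DNAJB6, a nuclear and cytosolic co-chaperone that keeps polyglutamine proteins from aggregating, had 56.8, 63.9, 61.5, 64.0, 63.9, 175.9 and 127 CPM. HSPH1 had 175, 173, 181, 192.5, 159, 377 and 335 CPM. DNAJA4, a type I co-chaperone, had 32.9, 42.3, 39.0, 39.9, 34.8, 79.5 and 78.1 CPM. All 3 were higher at 8 and 12 h than in any earlier library. DNAJA4 was 1.29-fold its 0 h level at 20 min (95% counting interval 1.10 to 1.51) but 1.06-fold at 2 h (0.897 to 1.25). HSPA4L and DNAJB11, a BiP co-chaperone of the endoplasmic reticulum, were 2.12-fold and 1.86-fold their 0 h level at 12 h. All 5 were lower at 0 h than in the library without 4sU. The ratios were 0.393 (DNAJB6), 0.331 (DNAJA4), 0.614 (HSPH1), 0.36 (HSPA4L) and 0.196 (DNAJB11). At 12 h over no 4sU they were 0.881, 0.786, 1.18, 0.762 and 0.364 in the same order, so only HSPH1 was above that library. DNAJB11 shares its 3′ end with the annotated gene AC068631.2 on the same strand, so its reads may belong in part to that gene.

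At 8 h the reads of these genes were mostly unlabelled, as were those of genes in general. Of all gene reads 10.8% were labelled at 8 h, and of all chaperone reads 15.1%. The labelled share at 8 h was 3.49% for DNAJB6, 5.80% for HSPH1, 5.08% for DNAJA4 and 1.18% for HSPA1B. HSPA1B had 58.9, 63.4, 62.0, 68.6, 54.0, 103 and 64.1 CPM, 1.75-fold its 0 h level at 8 h (95% counting interval 1.58 to 1.95) and 1.09-fold at 12 h (0.964 to 1.23), and its change against hours did not pass the threshold (adjusted p = 0.132). HSPA1A was 1.25-fold its 0 h level at 8 h and 0.717-fold at 12 h, DNAJB1 1.25-fold and 0.975-fold, all single libraries. Without the 12 h library HSPA1A, HSPA1B and DNAJB1 were called as rising. From labelled CPM the half-lives of HSPH1 and DNAJB6 were 3.12 and 3.51 h, longer than from the share.

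DNAJB5, a co-chaperone related to DNAJB1, had its peak at 2 h. It had 3.48, 2.84, 3.46, 7.66, 18.6, 3.31 and 2.70 CPM, and 8.22 CPM without 4sU. The 2 h library held 168 reads of this gene and was 5.35-fold the 0 h library (95% counting interval 3.59 to 8.23). At 2 h 23.2% of its reads were labelled, against 58.6% at 0 h. The 2 h share is taken over a larger total, so its drop does not show a loss of labelled reads. The half-life of 1.78 ± 0.41 h, 1 of the 4 under 2 h, was fitted to that share and is uncertain for the same reason. An edgeR line in time did not describe the course of the total (adjusted p = 0.327).

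**Figure D4:**
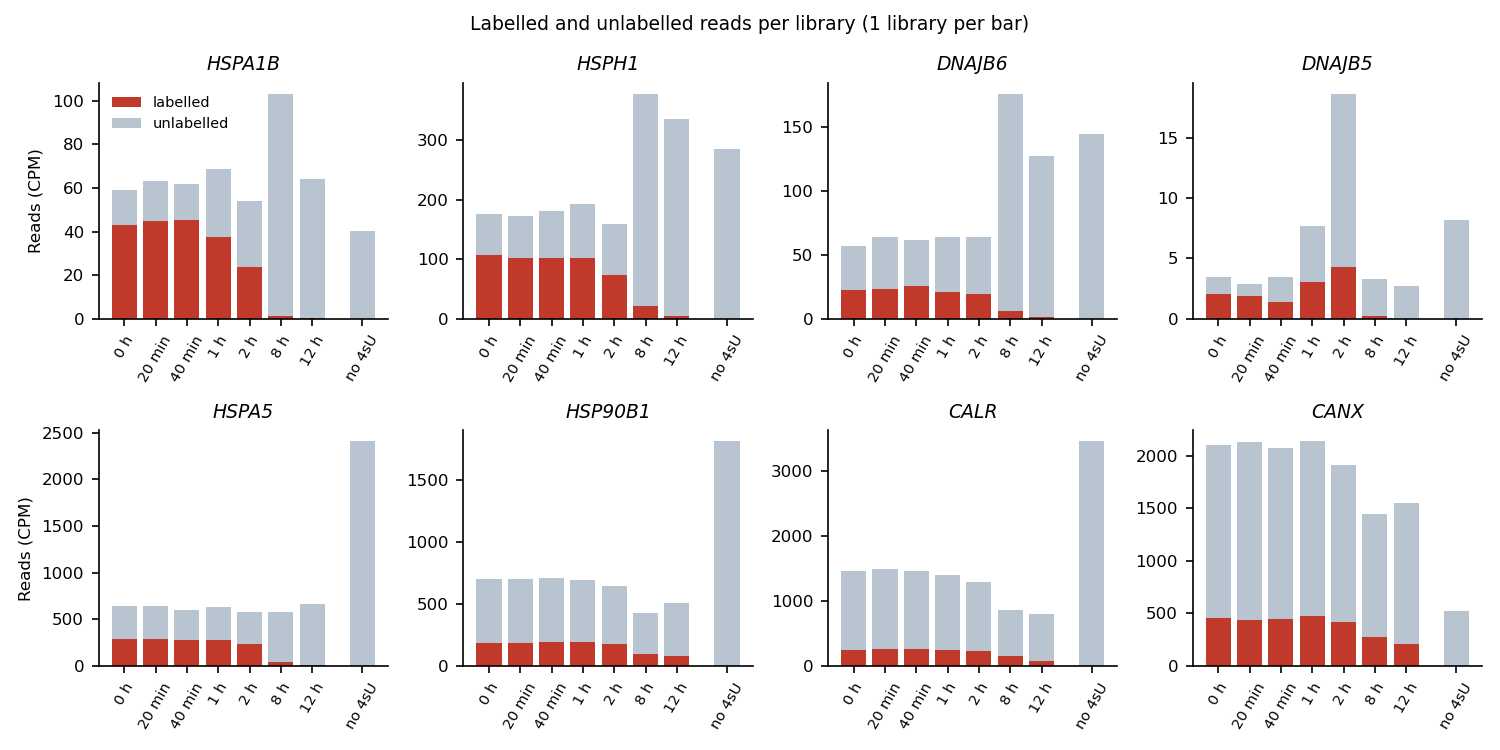
Labelled (red) and unlabelled (grey) reads in CPM (vertical axis) in the 7 chase libraries and the library without 4sU (horizontal axis, 1 library per bar) for 8 chaperone genes. HSPA1B, HSPH1 and DNAJB6 gain unlabelled reads at 8 h, DNAJB5 peaks at 2 h, HSPA5 loses its label at a level total, and CALR, CANX and HSP90B1 have fewer labelled and fewer total reads at 8 and 12 h than before.

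Of the 8 TRiC subunits, 5 (CCT2, CCT3, CCT4, CCT6A and TCP1) rose and 0 fell in edgeR, beside 25.7% and 25.6% of all genes. There were 0 falls also at an unadjusted p under 0.05 and in DESeq2. Without the 12 h library the rises of CCT3 and TCP1 were lost and CCT7 was called as falling. CCT7 was also called as falling with the 0 to 2 h libraries only. Without the 8 h library CCT5 and CCT8 were called as rising too. CCT2 had the largest change, 0.56 on the log2 scale (adjusted p = 0.000143), with 220.5, 233, 226, 245, 221, 286 and 335 CPM. HSP90AB1 rose by 0.54 (adjusted p = 0.000189), with 3300, 3299, 3203, 3077, 3070, 3840 and 4720 CPM. HSP90AA1 had 1764, 1880, 1818, 1880, 1597, 1713 and 1778 CPM, within a narrow band (adjusted p = 0.649).

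Of 11 chaperones of the endoplasmic reticulum, 6 fell and 1, DNAJB11, rose, beside 25.6% and 25.7% of all genes. The falls of HSPA13 and DNAJC3 were lost without the 12 h library. The falls were those of CALR (log2 change over 12 h of -0.98, adjusted p = 5.76e-06), DNAJB9 (-1.44, adjusted p = 0.0015), HSP90B1 (-0.63), HSPA13 (-0.59), CANX (-0.55) and DNAJC3 (-0.46), the last an inhibitor of eIF2α kinases that also assists BiP. CALR had 1459, 1488, 1466, 1400, 1284, 854 and 793 CPM, HSP90B1 had 697, 704, 713, 694, 647, 429 and 510 CPM, and CANX had 2104, 2130, 2078, 2139, 1911, 1443 and 1552 CPM. All 3 were lower in both late libraries than in any earlier one. HSPA5 did not follow them, with 639.8, 639.6, 598, 627, 573, 574 and 664 CPM (adjusted p = 0.795). Of the genes with the shared promoter element, CALR, CANX and HSP90B1 fell in total while their labelled share stayed high, so their labelled CPM was also lower at the end. Labelled CPM of CALR was 82.2 at 12 h, against 145.6 at 8 h and more in every earlier library. That of CANX was 208.5 at 12 h against 453 at 0 h and that of HSP90B1 was 78.3 against 184. HSPA5 lost its labelled share while the change of its total did not pass the threshold.

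Beyond these, the largest falls were those of DNAJC27, a small GTPase with a J-domain (-1.92, adjusted p = 0.000154), with 2.70 CPM at 12 h and 8.51 at 0 h, of DNAJC9, which handles histones (-0.79, adjusted p = 2.97e-05), and of DNAJC15 (-0.70, adjusted p = 4.14e-05). HSPB1 fell by 0.50 and HSPB11 by 0.43. HSPA8 fell by 0.44 (adjusted p = 0.00302), with 972, 1012, 999, 987, 793, 773 and 742 CPM, a step between 1 h and 2 h.

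Exact heat shock elements, GAANNTTCNNGAA on either strand, were found in promoter windows of 6 chaperone genes, DNAJA1, DNAJB6, HSP90AA1, HSP90AB1, HSPA8 and HSPD1. That is 6 of 80 windows (7.5%), against 172 of all 35116 (0.490%). One match of each gene is shown, since these 6 moved in different ways, with the 13 bases in capitals and read on the strand that carries them. They lie at chr7:157336859-157336899 (DNAJB6, plus strand), chr6:44247817-44247857 (HSP90AB1, minus strand), chr14:102087106-102087146 (HSP90AA1, plus strand), chr11:123062165-123062205 (HSPA8, plus strand), chr9:33025262-33025302 (DNAJA1, plus strand) and chr2:197500059-197500090 (HSPD1, plus strand). The matches of HSP90AA1, HSP90AB1 and HSPD1 lie in windows of further RefSeq starts of these genes, not in the window listed first.
DNAJB6: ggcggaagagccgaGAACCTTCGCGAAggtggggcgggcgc
HSP90AB1: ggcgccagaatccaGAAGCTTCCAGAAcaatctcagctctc
HSP90AA1: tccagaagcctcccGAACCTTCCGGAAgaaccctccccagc
HSPA8: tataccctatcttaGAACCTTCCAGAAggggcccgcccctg
DNAJA1: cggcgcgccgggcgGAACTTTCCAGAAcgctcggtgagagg
HSPD1: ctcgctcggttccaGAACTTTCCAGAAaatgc
Of the genes with these letters, DNAJB6 and HSP90AB1 rose, HSPA8 fell, and the log2 changes of DNAJA1 (0.10), HSP90AA1 (-0.05) and HSPD1 (0.02) did not pass the threshold. HSPA1A, HSPA1B, HSPH1 and DNAJB1 had no exact match in these windows, which says only that these letters are not there.

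In single libraries set against 0 h, few chaperone genes passed 1.5-fold. At 40 min none was higher or lower by that much, beside 2.57% of all genes higher and 1.98% lower; the highest ratio was 1.45 for DNAJB9 and the lowest 0.731 for HSPA1L. At 8 h 6 of 63 (9.52%) were higher and 6 (9.52%) lower, beside 15.7% and 12.4% of all genes. The 6 higher were DNAJA4, DNAJB6, DNAJC2, HSPA1B, HSPA4L and HSPH1, and the 6 lower were CALR, DNAJB9, DNAJC25, DNAJC27, DNAJC30 and HSP90B1. At 12 h 10 (15.9%) were higher and 7 (11.1%) lower, beside 17.7% and 15.1%. Chaperone genes therefore passed this size about as often as other genes or less often, which was not tested.

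Levels after the 12 h pulse were far from those without 4sU for many chaperone genes, as for genes in general. At 0 h 14 of 63 (22.2%) were 1.5-fold or more above the library without 4sU and 23 (36.5%) were as much below it, beside 31.8% and 28.4% of all genes. CANX had 2104 CPM at 0 h and 519 without 4sU, a ratio of 4.06 (95% counting interval 3.85 to 4.28). HSPB1 had 2149 and 662 CPM (3.25, 3.10 to 3.41), DNAJC15 had 149.7 and 45 CPM (3.33, 2.77 to 4.03), DNAJB2 had 14.3 and 5.72 CPM (2.5, 1.48 to 4.51) and DNAJC27 had 8.51 and 1.79 CPM (4.77, 1.95 to 15.1). On the other side HSPA5 had 639.8 CPM at 0 h and 2404 without 4sU (0.266, 0.257 to 0.276), CALR 1459 and 3452 CPM, HSP90B1 697 and 1810 CPM and HSP90AB1 3300 and 7291 CPM.

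**Figure D5:**
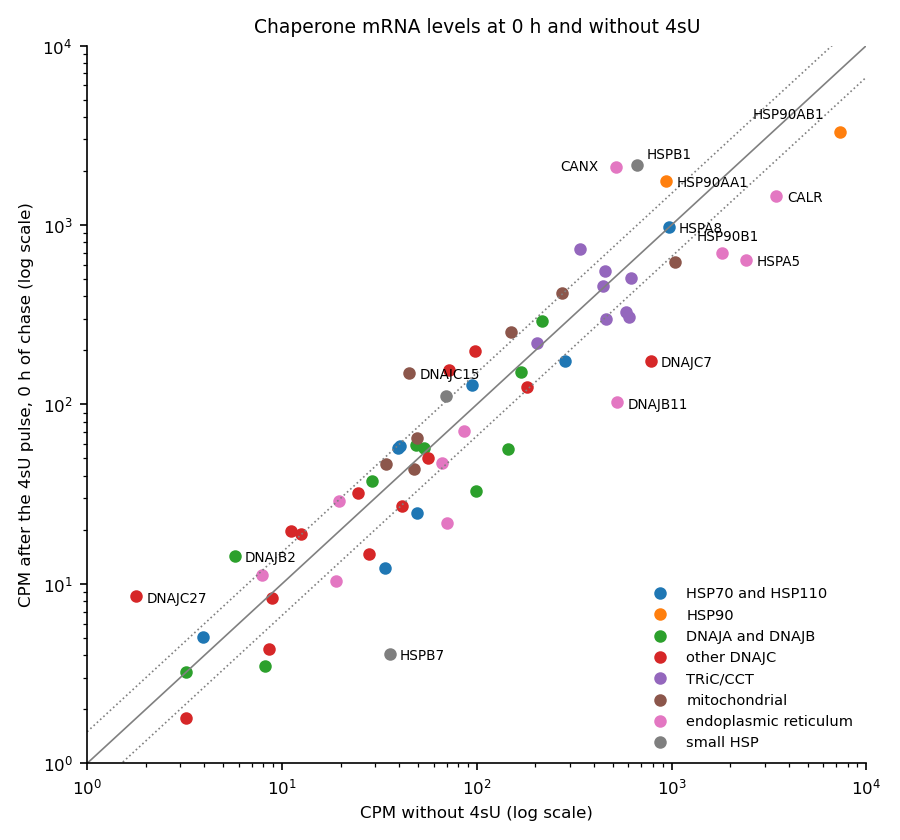
CPM of the 63 chaperone genes at 0 h of chase (vertical axis, log scale) against CPM in the library without 4sU (horizontal axis, log scale), coloured by role; the solid line marks equal levels and the dotted lines 1.5-fold. HSPA5, HSP90B1, CALR, DNAJB11 and HSP90AB1 lie below the lines and CANX, HSPB1 and DNAJC15 above them.

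HSPA5, CALR, HSP90B1 and DNAJB11 were all lower at 0 h than without 4sU while CANX was higher, and HSPA5 had 664 CPM at 12 h, still far from 2404. The library without 4sU is 1 library with fewer reads than the others, so 4sU, culture and preparation cannot be told apart in this comparison. The copies of the stress-inducible HSP70 were 1.45-fold (HSPA1A) and 1.46-fold (HSPA1B) their level without 4sU, HSPA8 was 1.01-fold and DNAJB1 0.902-fold. HSPA6, a strictly inducible HSP70, had from 2 to 12 reads in the chase libraries and 0 without 4sU, which allows up to 3 reads.

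Genes that work with chaperones were read from fixed lists. The background for each list is the 25.7% of all genes that rose and the 25.6% that fell. Of 22 co-chaperones of HSP70 and HSP90, 5 rose and 7 fell over the chase, close to that background, and 22 of 22 had a resolved half-life with a median of 3.25 h, from 1.76 ± 0.27 h for BAG3, a nucleotide exchange factor, to 12.8 ± 3.78 h for CDC37, which brings kinases to HSP90. AHSA1, which speeds the ATPase of HSP90, rose by 1.35 on the log2 scale (adjusted p = 1.84e-05), with 170.4, 167.5, 162, 163, 147, 343 and 361 CPM. CHORDC1 and PPID rose by 1.2 and 0.99, SUGT1 by 0.78, and SGTA and BAG4 fell by 0.78 and 0.58. AHSA1, like HSPH1, was higher at 8 and 12 h than in any earlier library. At 8 h 4.78% of its reads were labelled, against 10.8% of all gene reads.

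Among the genes of the heat shock factor list, SERPINH1, a collagen chaperone of the endoplasmic reticulum, rose (0.82), and HSBP1 and UBB fell (-0.40 and -0.72). HSF2 had the shortest resolved half-life of that list, 1.37 ± 0.16 h, and UBB the longest, 23.97 ± 5.13 h. HSF1, the main heat shock factor, had 6.97 ± 1.51 h and a level that did not pass the threshold (adjusted p = 0.0575). Of 6 prefoldin subunits, which pass new actin and tubulin to TRiC, 0 rose and 2, PFDN1 (-0.44) and VBP1 (-0.31), fell. PFDN2 rose at an unadjusted p under 0.05 in edgeR, and 0 rose with adjustment in DESeq2. Their resolved half-lives ran from 3.46 ± 0.47 h for PFDN1 to 11.8 ± 2.74 h for PFDN6. PFDN5 had no called decline, was not resolved and kept 70.8% of its starting share at 12 h.

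Of 20 further genes of folding and stress signalling in the endoplasmic reticulum, 6 rose and 6 fell. Those that rose included ERO1B (1.29), which oxidises disulfide isomerases, the sensor kinase EIF2AK3 (1.18) and SEL1L (0.67) of the degradation channel. Those that fell included the disulfide isomerases P4HB (-0.93), PDIA6 (-0.76) and PDIA4 (-0.62). The labelled share of P4HB was 9.71, 9.64, 10.7, 10.3, 10.5, 9.84 and 7.14% over the 7 times, level to 8 h like that of CALR. Resolved half-lives ran from 1.32 ± 0.29 h for EIF2AK3 to 9.67 ± 1.45 h for CRELD2. P4HB, PDIA3 and PDIA6 had no called decline and were not resolved. They kept 71.1, 67.6 and 76.4% of their starting share at 12 h. Of 11 mitochondrial folding factors and proteases with reads, 2 rose, SPG7 (0.58) and AFG3L2 (0.42), and 4 fell, GRPEL2 (-1.36), TIMM44 (-1.10), TRAP1 (-0.47) and GRPEL1 (-0.27). GRPEL2, a nucleotide exchange factor of HSPA9, also had the shortest resolved half-life of the list, 1.97 ± 0.35 h, and TIMM44 of the import motor the longest resolved one, 6.28 ± 0.80 h; TRAP1 was not resolved and kept 68.1% of its starting share at 12 h.

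Chaperone genes with long half-lives carried less label at 0 h and had shorter 3′ UTRs. Across the 56 resolved genes the half-life had a Spearman correlation of -0.59 with the labelled share at 0 h (-0.52 over 8831 genes), 0.56 with the mean total count (0.37) and -0.37 with the length of the 3′ UTR in GENCODE 29 (-0.24 over 8793 genes). Genes share the same libraries and are not independent, so these are descriptions. The labelled share at 0 h also had a correlation of 0.54 with the T content of the last 250 bases of the transcript over 58 genes (0.58 over 9350), and only a T can be read as converted. HSPA1B, with the highest T content of the 58 (45.6%), was labelled in 72.9% of reads, and DNAJC4, with the lowest (14%), in 2.86%. The part of T content in the differences of label between genes was not tested.

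Of 28 chaperone genes with half-lives below their median, 11 (39.3%) had a Pumilio element, TGTANATA, in the 3′ UTR, against 2 of 28 (7.14%) above it and 30.3% of all resolved genes. The UTRs of the first group were longer, with a median of 1654 bases against 503 bases, which gives more room for a match. The pentamer ATTTA was in 82.1% and 78.6% of the same groups and in 74.7% of all genes. Sites are shown of 3 genes below the chaperone median, each of another role, and of 1 gene above it. Of the 3, DNAJB1 had 1.75 h, while HSPA5 (2.90 h) and DNAJC9 (2.99 h) were above the median of all genes, 2.72 h. The element is in capitals, as printed in the transcript's DNA letters from GENCODE 29.
DNAJB1: gtggaacgtcTGTAAATAtgtttttata
HSPA5: gctgtaatatTGTAAATActggactcag
DNAJC9: ttgtaagaggTGTATATAattcaataaa
HSPE1: tctttcgtcaTGTAAATAatttccatat
HSPE1, with 7.99 h, was above the median and carries the element in a 3′ UTR of 198 bases.

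At their 3′ ends 12 chaperone genes have an annotated gene on the opposite strand, CALR, CCT4, CCT5, DNAJA4, DNAJC11, DNAJC14, DNAJC2, DNAJC4, DNAJC7, DNAJC9, HSPA4L and TCP1, and the sources used here do not say whether counting used strand. HSPA8, HSP90AA1, HSP90AB1, HSPD1, HSPE1 and several TRiC genes have processed pseudogenes, and the handling of reads shared with these is not stated either. No chaperone gene had counts identical to those of another gene.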

How the data were processed

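SLAM-seq 3′ end libraries of THP-1 cells were read as 2 tables that the authors deposited, both raw counts per 3′ UTR segment of a transcript, 1 of all reads and 1 of reads called nascent, here called labelled. Per the submitters' processing notes, bcl2fastq 2.17.1.14 and Trim Galore 0.6.5 were used, and the builds named are hg19 and dm3. Not given in the sources used here are the aligner, the counter, its use of strand and how many conversions make a read labelled. Drosophila S2 spike-in RNA was added per the labels' protocols and was not used here. Libraries were prepared with QuantSeq 3′ FWD, with no molecular identifiers stated, so binomial and count-ratio intervals (exact, 95%) cover counting error only.

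GENCODE 29 named 84.9% of 56570 transcripts, and segments without a name held 5.65% of counts. Each gene was taken from its segment with the largest summed total. Left out were 3056 segments off the main chromosomes and 88 genes with the same counts as another. The members, their roles and the further gene lists were chosen with earlier results of these data known. Genes were named by a written rule: fixed well-known members, the shortest and longest half-life per role, the largest changes and ratios, and in each further list the extremes of half-life and up to 6 genes past the threshold. DNAJB5, HSF1, HSPA6 and genes shown for promoter elements, shared 3′ ends or membership of TRiC were added after their values were seen. One gene of the heat shock factor list is not reported here.

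Labelled counts were fitted against hours in edgeR 4.0.16 (R 4.3.3), quasi-likelihood, with log total reads of that gene as offset (mean total of at least 50, at least 20 labelled reads), and totals with TMM factors (mean of at least 20). P-values were adjusted by Benjamini-Hochberg over all genes tested, and calls made under 0.05. With 7 libraries and 5 residual degrees of freedom, these p-values measure scatter about a line in time, which may be technical. CPM are counts scaled to a common library size with TMM factors. The share was fitted by binomial maximum likelihood as decaying exponentially to a background, which gave the half-lives. The background is the share without 4sU, shrunk with 100 prior reads. Resolved half-lives are those between 0.25 and 24 h of genes with a called decline, at least 10 labelled reads over background in the 0 h fit, and a standard error of at most 0.5 on the log rate. Both scripts were tested on simulated data. Alternatives were DESeq2 1.42.0, other scalings, no filter, summed segments, labelled CPM, subsets of times, other fold limits and leaving out each library. Promoter windows come from RefSeq (GRCh38.p14), with 58 of 63 genes matched. Positions of 3′ ends are hg19 starts as the files name them.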

Additional observations from a re-analysis of the deposited data

How the results depend on the processing

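No paired analysis was possible because every condition had 1 library and the labels give no replicate numbers. Most calls rest on the 8 and 12 h libraries. With the 0 to 2 h libraries only, 20 genes declined, 1 (DNAJB5) rose and 5 fell, and the median half-life was 4.59 h. Slopes from these libraries, scaled to log2 changes over 12 h, turned their sign for CCT6A (-0.82), DNAJA4 (-0.33), DNAJB11 (-1.16), HSP90AB1 (-0.71), HSPA4L (-1.81), HSPH1 (-0.70) and TCP1 (-0.68). They also did so for DNAJC27 (0.25), DNAJC4 (0.53) and HSPA13 (1.45). These values extend a slope from 0 to 2 h beyond its libraries and are not measured changes. The measured log2 ratio of 2 h over 0 h was, for example, -0.36 for HSPA4L, 0.17 for HSPA13 and 0.08 for DNAJA4. The cause of the changes of sign was not tested. Leaving out each library in turn gave 54 to 57 declines, 15 to 18 rises, 12 to 13 falls and medians of 3.10 to 3.39 h. Plain library sizes gave 29 rises in total level, and 10 higher and 3 lower genes at 8 h over 0 h. A limit of 2-fold gave 3 higher and 2 lower at 8 h, 3 higher and 1 lower at 12 h, and 8 higher and 12 lower at 0 h over no 4sU, and genes with a mean of at least 200 reads gave 2 lower at 8 h and 4 lower at 12 h, both by construction with fewer genes. The plain library sizes in the fits and the minimum of 200 reads were added after seeing the data. DESeq2, DESeq2 size factors, no filter and summed segments left the counts of declines, rises and falls within 1.5 times. With 1 library per condition, differences between single libraries rest on counting error alone, and genes under about 10 CPM (DNAJB9, DNAJC27, DNAJB5, HSPA1L) are the least certain.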
